A study of Mus musculus with 2 samples.

Results

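The axon initial segment and the node of Ranvier are the short stretches of axon where action potentials start and are renewed, and 10 genes that build them and their borders are described here in the mouse cortex. They were taken by name, with no measured value in the rule: the ankyrin genes Ank2 and Ank3, the spectrin genes Sptan1, Sptbn1 and Sptbn4, the adhesion genes Nfasc and Nrcam, the contactin gene Cntn1, and the Caspr genes Cntnap1 and Cntnap2. All 10 are protein-coding, and they are 10 of the 55536 annotated genes in the deposited gene tables. Sequencing covered total RNA of the left cerebral cortex, from males of the F1 hybrid B6CASTF1/J at an age of 10 days, supplied by The Jackson Laboratory. Each of the 2 libraries was made from 300 ng of RNA, with ERCC spike-ins (synthetic RNAs of known amounts) added. The libraries form 1 group, with no other genotype, treatment or age and no control, so every value below is a description and no test was made. The labels number the animals separately yet give them the same donor identifier. The SD of the libraries (n = 2) may therefore be partly technical, and each library is bulk tissue with all its cell types.

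In textbook accounts, ankyrin-G, the product of Ank3, is the organiser of the initial segment and of the node. It holds sodium and potassium channels and the adhesion molecules neurofascin and NrCAM in the membrane, and it ties them to a lattice of beta-IV spectrin, alpha-II spectrin and actin. Ankyrin-B (Ank2) and beta-II spectrin (Sptbn1) form the corresponding lattice of the remaining axon and the paranodes. At the paranode, contactin-1 and Caspr (Cntnap1) on the axon bind the glial form of neurofascin on the myelin loops. Caspr2 (Cntnap2) lies beside them at the juxtaparanode, where it gathers potassium channels.

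All 10 genes reached 1 TPM in each library, the limit used for detection, as did 59.6% of 22015 nuclear protein-coding genes. TPM is a length-corrected abundance with an equal total for every library, so levels may be compared between genes. Their medians were 213.8 TPM (replicate 1) and 210.5 TPM (replicate 2), and the median of the detected protein-coding genes was 16.3. The highest member, Ank2, stood 20.5-fold above the lowest, Cntnap1. Expected counts per member and library ran from 2622 to 61281, so counting error was small for each gene level. Replicate 1 had 31254528 expected counts in all and replicate 2 had 30218308. The deposited tables hold a first quantification (from alignments to the transcriptome) and a second one (from the reads with an index). Values are from the first unless the second is named. In the second quantification the 10 genes stood 1.29 to 1.59 times as high as in the first. Nuclear protein-coding genes took 48.0% and 49.0% of the TPM in the first quantification and 78.0% and 79.3% in the second.

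**Figure D1:**
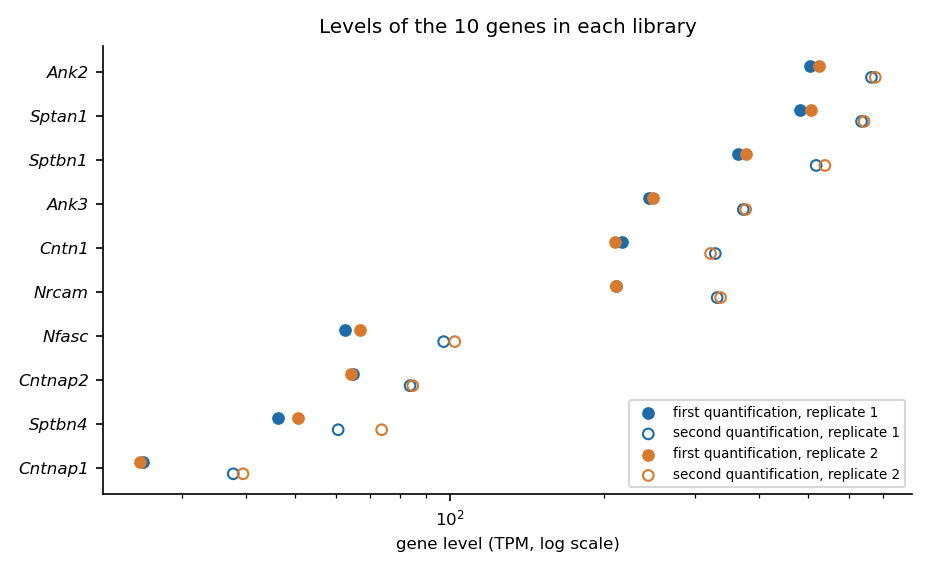
Level of each of the 10 genes (TPM, log axis) in replicate 1 and replicate 2, with filled points for the first quantification and open points for the second. Ank2 and Sptan1 lie at the top, near 500 TPM in the first quantification, and Cntnap1 at the bottom, near 25.

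The ankyrins came first. Ank2 (ENSMUSG00000032826.17, chromosome 3, 126921612 to 127499350, minus strand) stood at 503.7 TPM in replicate 1 and 525.7 in replicate 2, with 60261 and 61281 expected counts. Ank3 (ENSMUSG00000069601.14, chromosome 10, 69398773 to 70027438, plus strand) stood at 244.8 and 249.2 TPM, with 26900 and 26480 counts. Ank2 was thus the higher in each library, by a ratio of 2.08 ± 0.037 (SD, n = 2) in the first quantification and 1.78 ± 0.0079 in the second. Ank1, the ankyrin of red cells and of some neurons and the only other ankyrin gene, stood at 10.3 ± 0.276 TPM. Among protein-coding genes Ank2 ranked 62 and Ank3 ranked 236 by mean TPM.

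Neurons make giant forms of both ankyrins by including a very long exon, and the exon content of the transcripts was used to read them. A limit of 12 kb had been set for a long transcript. No Ank3 transcript in the annotation reaches it, since the longest of the 47 has 9963 bases, so transcripts were also sorted by whether they hold the longest coding exon of the gene, a choice made after seeing the data. The exon begins as follows in each gene, with its first 120 bases in capitals after the last 12 bases of the exon before it in lower case (Ank3-244, exon of 7674 bases at chr10:69986089-69993762, plus strand, and Ank2-207, exon of 6198 bases at chr3:126941610-126947807, minus strand, both mm10).
Ank3 giant exon: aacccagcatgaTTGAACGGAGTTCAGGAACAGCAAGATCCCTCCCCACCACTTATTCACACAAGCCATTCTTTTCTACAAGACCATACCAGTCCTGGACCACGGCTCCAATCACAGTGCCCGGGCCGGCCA
Ank2 giant exon: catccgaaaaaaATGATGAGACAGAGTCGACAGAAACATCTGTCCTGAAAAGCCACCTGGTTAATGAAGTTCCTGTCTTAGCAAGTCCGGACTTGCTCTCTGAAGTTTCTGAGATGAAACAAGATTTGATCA

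In Ank2 the giant exon was held by 2 transcripts, which are also its only ones of 12 kb or more. Ank2-207 (12413 bases, 3926 residues) and Ank2-208 (14305 bases, 3900 residues) together stood at 154.8 TPM in replicate 1 and 165.2 in replicate 2. That was 31.1 ± 0.502% (SD, n = 2) of the Ank2 TPM and 67.8 ± 0.047% of its expected counts. The second quantification gave 36.5 ± 1.03% of the TPM and 76.2 ± 0.196% of the counts. A share of TPM counts molecules and a share of counts weights them by length, so the same transcripts take a larger share of counts. Ank2-207 alone held 22.9% of the TPM and was the top transcript of the gene by both measures in both quantifications. The 3 transcripts that span the exon and skip it held 10.7 ± 0.700% of the TPM and 10.2 ± 0.566% of the counts. Most of that was Ank2-201 (1050 residues), at 50.4 and 57.8 TPM.

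The remaining Ank2 abundance lay in transcripts that do not reach the giant exon, at 58.3 ± 1.20% of the TPM but 22.04 ± 0.613% of the counts. The largest of these was Ank2-216, which the annotation labels a retained intron, at 105.2 and 105.3 TPM. It has 2359 bases, of which 2358 lie in the last exon of Ank2-201, so it is nearly the same sequence as the 3′ end of a coding transcript. It held 20.5% of the TPM and 7.87% of the counts. Ank2-218 and Ank2-220, models whose 3′ ends are not known, held 6.42% and 6.86% of the TPM, and Ank2-220 was close to 0 in the second quantification. Ank2-213 and Ank2-227, fragments of 458 and 365 bases, held 5.44% and 7.70% of the TPM and 0.333% and 0.349% of the counts. Ank2-227 had 0 in the second quantification. Ank2-206, a fragment among the transcripts that skip the giant exon, had 0.083% of the TPM in the first and 8.32% in the second, which raised the share of that class to 18.4 ± 0.269%.

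In Ank3 the whole giant exon was annotated only in Ank3-244, an incomplete model of 8612 bases whose start and end are not known. Ank3-244 stood at 53.9 and 58.4 TPM and was the top transcript in both quantifications. It held 22.7 ± 0.990% of the TPM and 36.0 ± 1.37% of the counts of the gene. Together with Ank3-225 and Ank3-233, which hold at least 1000 bases of the exon, it reached 34.3 ± 0.526% of the TPM and 50.3 ± 0.342% of the counts, at 84.8 and 84.5 TPM. The second quantification gave 33.5 ± 0.585% and 52.6 ± 0.612%. The 25 transcripts that span the exon and skip it held 29.8 ± 0.054% of the TPM and 41.8 ± 0.045% of the counts. The shares of counts with and without the giant exon thus lay closer to each other in Ank3 than in Ank2, where the exon-holding transcripts had 67.8%. The models are unlike, however. Ank3-244 has 9 exons and is incomplete, whereas Ank2-207 and Ank2-208 are complete models of 46 exons each. A difference between the genes in the use of the exon therefore cannot be read from these shares. The 2 libraries differed by far less than these shares, with SDs of 0.047 for Ank2 and 0.342 for the Ank3 transcripts with 1000 bases or more.

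The forms of Ank3 without the giant exon were led by Ank3-231 (9963 bases, 1961 residues), at 31.1 and 29.4 TPM, and Ank3-240 (6870 bases, 1807 residues), at 28.9 and 30.1 TPM. They held 12.3% and 11.9% of the TPM, and 22.5% and 15.04% of the counts. Ank3-233, which holds part of the giant exon and is not one of these forms, held 7.14% of the TPM. The fragments Ank3-243 and Ank3-226 held 9.29% and 5.95% of the TPM, and 0.752% and 1.01% of the counts. Ank3-243 lies wholly in exons of Ank3-244 and begins inside the giant exon, at position 69992091. It has only 534 bases, so it was not sorted with the transcripts that hold the exon. Among the alternative coding exons of Ank3, 11 were included at intermediate levels. The limits were 10% to 90% of the TPM of the spanning coding transcripts, in each library and each quantification. A 63-base exon was held by 50.7 ± 3.401% of that abundance, a 27-base exon by 40.7 ± 0.518%, a 12-base exon by 29.2 ± 1.00% and a 309-base exon by 28.9 ± 0.779% (n = 2). In Ank2, 4 exons were intermediate, among them a 183-base exon at 45.1 ± 1.63% and a 12-base exon at 11.7 ± 0.676%.

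Spectrins form the lattice to which the ankyrins bind, as tetramers of alpha and beta chains. Sptan1 (ENSMUSG00000057738.13, chromosome 2, 29965560 to 30031451, plus strand), the alpha chain used outside red cells, stood at 482.6 TPM in replicate 1 and 506.1 in replicate 2. Sptbn1 (ENSMUSG00000020315.18, chromosome 11, 30099395 to 30268175, minus strand), beta-II spectrin, stood at 363.9 and 377.6. Sptbn4 (ENSMUSG00000011751.16, chromosome 7, 27356383 to 27447686, minus strand), the beta-IV chain of initial segments and nodes, stood at 46.3 and 50.7. Sptbn1 exceeded Sptbn4 by a ratio of 7.66 ± 0.293 (SD, n = 2). In the second quantification the ratio was 7.93 ± 0.873. Sptb, the beta spectrin known from red cells and muscle, stood at 24.8 ± 1.41 TPM and thus under Sptbn4 in both libraries. Sptbn5, at 0.240 TPM, fell under the limit of 1 TPM.

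**Figure D2:**
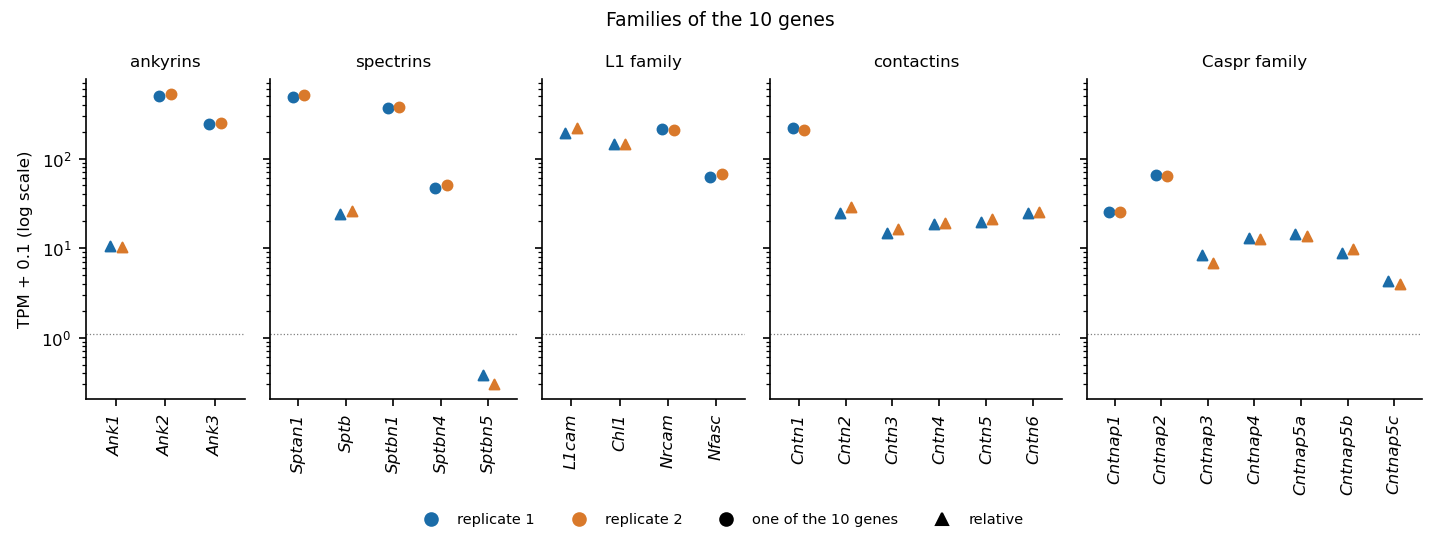
TPM plus 0.1 (log axis) of genes of 5 families in replicate 1 and replicate 2, circles for the 10 genes and triangles for their relatives, with a dotted line at the detection limit of 1 TPM. The 2 libraries of each gene lie close together, and of the genes drawn only Sptbn5 lies under the line.

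The main choice in Sptan1 was a 60-base exon, shown with 12 bases of each neighbouring exon in lower case (Sptan1-203, chr2:30001100-30001159, plus strand, mm10).
Sptan1 60-base exon: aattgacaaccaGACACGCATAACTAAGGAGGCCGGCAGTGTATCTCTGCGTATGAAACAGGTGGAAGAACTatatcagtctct
The exon was held by 70.3 ± 0.585% of the abundance of the coding transcripts that span it, and by 63.3 ± 1.68% in the second quantification. Sptan1-203 (2477 residues), which includes it, stood at 238.2 and 242.3 TPM, and Sptan1-204 (2457 residues), which skips it, at 93.4 and 101.7. They held 48.6% and 19.7% of the TPM of the gene. The fragments Sptan1-206 and Sptan1-207 held 8.16% and 7.87% of the TPM, with 0.960% and 0.487% of the counts, and Sptan1-207 had 0 in the second quantification.

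Sptbn4 had both a full-length and a short form. The full-length form, mainly Sptbn4-201 (2561 residues), held 38.4 ± 0.288% of the TPM and 58.4 ± 0.927% of the counts (n = 2), at 17.8 and 19.3 TPM. A coding sequence of 1241 residues, shared by Sptbn4-202, Sptbn4-203 and 1 further transcript, held 49.97 ± 1.56% of the TPM and 40.8 ± 0.978% of the counts, at 22.6 and 25.9 TPM. All 3723 coding bases of Sptbn4-203 lie in the coding sequence of Sptbn4-201, in 18 exons at its 3′ side against 35 in the full form, so the short form lacks the amino-terminal part, where beta spectrins bind actin. In the second quantification the short form had 43.3 ± 2.22% of the TPM and the full form 44.1 ± 3.65%. There the order by TPM differed between the libraries and the gap was smaller than the SDs, whereas in the first quantification the short form was the higher in both libraries. By counts the full form was the higher in each library of both quantifications, with 65.5 ± 0.850% in the second. Within the short form the quantifications also disagreed on the transcript: Sptbn4-203 held 44.7% in the first and 13.9% in the second, and Sptbn4-202 4.60% and 25.6%. Sptbn4-206, a fragment of 493 bases, held 8.79% of the TPM and 0.610% of the counts.

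Sptbn1 was nearly all in 1 form. Sptbn1-201 (2363 residues) stood at 330.8 and 343.9 TPM, 91.0 ± 0.112% of the gene, and at 78.4 ± 1.21% in the second quantification. The difference went mainly to Sptbn1-204, an incomplete model that shares 6276 of its 6276 coding bases with Sptbn1-201, at 1.02% in the first and 14.5% in the second.

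Neurofascin and NrCAM are membrane proteins of the L1 family whose cytoplasmic tails bind ankyrins. Nfasc (ENSMUSG00000026442.14, chromosome 1, 132564690 to 132741797, minus strand) stood at 62.4 TPM in replicate 1 and 66.9 in replicate 2. Nrcam (ENSMUSG00000020598.16, chromosome 12, 44328885 to 44601964, plus strand) stood at 211.1 and 211.0. Nrcam exceeded Nfasc by a ratio of 3.27 ± 0.160 (n = 2), and by 3.36 ± 0.081 in the second quantification. Coding transcripts annotated as complete held 42.6% of the Nrcam TPM and 81.8% of the Nfasc TPM, so the ratio would be lower for these alone. All 12 relatives in the L1, contactin and Caspr families were detected, with medians of 16.5 and 17.5 TPM. L1cam stood near Nrcam, at 192.9 and 219.4 TPM, and Chl1 stood between Nrcam and Nfasc, at 144.9 and 143.5. Cntn2, at 24.4 and 29.0 TPM, and Cntn6, at 24.6 and 25.2, came next, with overlapping ranges and Cntn6 above Cntn2 in both libraries of the second quantification.

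The forms of neurofascin differ in blocks of exons for the extracellular part. The transcript Nfasc-202 holds a block of 3 exons that Nfasc-201 lacks, and Nfasc-201 holds a block of 2 exons that Nfasc-202 lacks. They are printed in transcript order, each in capitals between 12 bases of the neighbouring exons in the spliced transcript, because the shares below are read from them. The 3-exon block was held by 74.2 ± 2.84% of the abundance of the coding transcripts that span it (n = 2). All lie on the minus strand of chromosome 1 (mm10), at chr1:132588074-132588310, chr1:132584364-132584480 and chr1:132582995-132583147 for the 3-exon block and at chr1:132600099-132600214 and chr1:132597765-132597969 for the 2-exon block.
Nfasc 3-exon block, 237 bases: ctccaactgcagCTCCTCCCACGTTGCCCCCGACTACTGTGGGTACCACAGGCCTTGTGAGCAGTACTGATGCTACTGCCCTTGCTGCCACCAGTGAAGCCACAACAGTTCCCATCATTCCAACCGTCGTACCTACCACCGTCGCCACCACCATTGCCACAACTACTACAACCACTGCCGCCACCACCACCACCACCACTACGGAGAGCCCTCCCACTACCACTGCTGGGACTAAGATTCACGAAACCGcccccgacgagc
Nfasc 3-exon block, 117 bases: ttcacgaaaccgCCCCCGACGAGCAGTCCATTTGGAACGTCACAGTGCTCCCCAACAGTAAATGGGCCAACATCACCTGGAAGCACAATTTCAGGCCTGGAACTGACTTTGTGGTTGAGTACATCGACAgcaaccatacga
Nfasc 3-exon block, 153 bases: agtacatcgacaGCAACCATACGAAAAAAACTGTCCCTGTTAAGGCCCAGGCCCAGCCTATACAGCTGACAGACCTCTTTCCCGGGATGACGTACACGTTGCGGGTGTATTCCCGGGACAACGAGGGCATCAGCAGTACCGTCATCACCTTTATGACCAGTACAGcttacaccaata
Nfasc 2-exon block, 116 bases: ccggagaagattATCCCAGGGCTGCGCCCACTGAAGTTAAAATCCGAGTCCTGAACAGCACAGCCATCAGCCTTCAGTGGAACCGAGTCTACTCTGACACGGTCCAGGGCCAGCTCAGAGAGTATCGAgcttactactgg
Nfasc 2-exon block, 205 bases: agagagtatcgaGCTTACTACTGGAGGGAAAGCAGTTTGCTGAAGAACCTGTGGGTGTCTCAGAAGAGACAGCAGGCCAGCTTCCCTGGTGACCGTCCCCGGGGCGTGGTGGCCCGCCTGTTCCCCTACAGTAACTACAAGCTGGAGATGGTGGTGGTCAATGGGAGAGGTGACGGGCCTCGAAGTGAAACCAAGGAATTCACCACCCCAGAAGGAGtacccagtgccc
Of the codons that lie whole in the 237-base exon, 66.7% specify proline, alanine or threonine, against 22.8% over the coding sequence of Nfasc-202. The neuronal form of neurofascin, found at initial segments and nodes, is known for such a mucin-like segment. The glial form at the paranodal loops is known to lack it and to carry a further fibronectin-type domain in its place.

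Nfasc-202, the only transcript with the 3-exon block alone, stood at 35.7 TPM in replicate 1 and 35.8 in replicate 2. It held 55.4 ± 2.66% (SD, n = 2) of the Nfasc TPM and 80.2 ± 0.249% of its counts, and 46.0 ± 1.69% and 71.7 ± 0.550% in the second quantification. The 3 transcripts with the 2-exon block alone stood at 13.8 TPM in replicate 1 and 11.5 in replicate 2, which was 19.6 ± 3.49% of the TPM and 13.2 ± 1.46% of the counts. In the second quantification they held 20.5 ± 2.83% and 14.9 ± 1.30%. Nfasc-201 (1157 residues) and Nfasc-203 (1174 residues) made up most of this class, at 11.8% and 7.85% of the TPM. The 3-exon class was thus the larger in each library and quantification, by TPM and by counts. Nfasc-207 (1347 residues), which holds both blocks, depended on the quantification, with 0 and 0.890 TPM in the first and 11.1 ± 0.795% of the TPM of the gene in the second. The class with neither block whole held 24.4 ± 5.21% of the TPM and 6.06 ± 1.01% of the counts, led by the retained-intron fragment Nfasc-206 at 11.3% of the TPM and by Nfasc-208 at 6.15%.

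The 2-exon class was lower in replicate 2, whereas Nfasc-202 hardly differed between the libraries. In the list of 12 genes of myelinating oligodendrocytes, 9 of the 9 whose expected counts averaged at least 100 were also lower in replicate 2. Their median log2 ratio was -0.25, and the whole list had summed levels of 391.05 and 336 TPM. Their part in the difference was not tested, and fewer cells of a type cannot be told apart from less RNA per cell in bulk tissue. Within the 2-exon class the drop lay in Nfasc-203, at 6.30 and 3.74 TPM with 491.7 and 279.9 counts, while Nfasc-201 had 7.48 and 7.72 TPM. The genes of oligodendrocyte precursors were higher in replicate 2 in 7 of 7, with a median of 0.08.

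**Figure D3:**
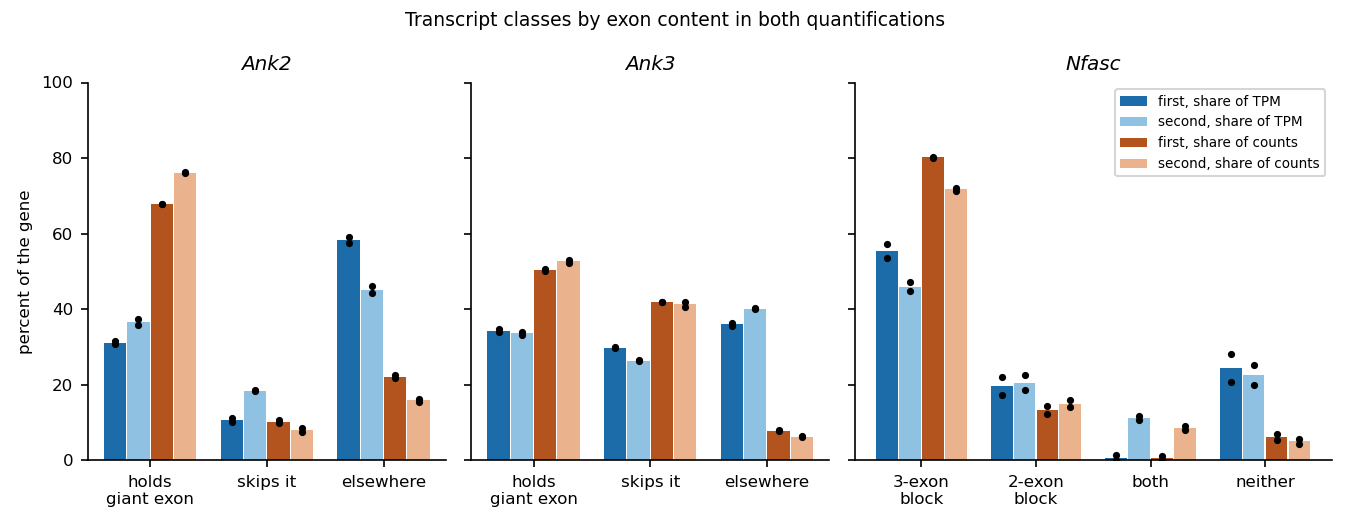
Share of each gene (percent) in transcript classes set by exon content, for Ank2, Ank3 and Nfasc; bars are means of the 2 libraries, black points the libraries, and colours the measure and the quantification; the Ank3 bars count transcripts with 1000 bases or more of the giant exon. Shares of counts exceed shares of TPM for the classes with long transcripts, and the class of Nfasc with both blocks is present mainly in the second quantification.

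Short exons were a further feature that Nfasc and Nrcam had in common. An 18-base exon was in intermediate use in each gene, and Nrcam had further small exons of 30 and 36 bases. They are shown in capitals with 12 bases of each neighbour (mm10, chr1:132637864-132637881 and chr1:132607003-132607047 on the minus strand, and chr12:44535057-44535074, chr12:44566840-44566869 and chr12:44578145-44578180 on the plus strand).
Nfasc 18-base exon: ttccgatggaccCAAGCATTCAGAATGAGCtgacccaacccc
Nfasc 45-base exon: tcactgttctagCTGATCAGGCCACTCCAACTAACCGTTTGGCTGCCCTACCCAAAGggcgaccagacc
Nrcam 18-base exon: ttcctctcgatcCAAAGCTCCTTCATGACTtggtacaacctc
Nrcam 30-base exon: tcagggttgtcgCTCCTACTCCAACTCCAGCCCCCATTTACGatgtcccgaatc
Nrcam 36-base exon: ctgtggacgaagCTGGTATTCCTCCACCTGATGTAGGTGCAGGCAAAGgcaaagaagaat
Each of these exons is a multiple of 3 bases, so its use keeps the reading frame. The 18-base exon was held by 68.5 ± 1.74% of the spanning coding abundance in Nfasc and by 56.9 ± 0.572% in Nrcam (n = 2), and by 70.0 ± 0.784% and 59.8 ± 2.08% in the second quantification. In Nrcam it is annotated only in Nrcam-215, labelled as subject to nonsense-mediated decay, and in the incomplete models Nrcam-204, Nrcam-206 and Nrcam-213, of 682 to 939 bases. The protein-coding transcripts Nrcam-201 and Nrcam-202 lack it, so its Nrcam share rests largely on fragments. The 45-base exon of Nfasc was held by 76.1 ± 2.93%. In Nrcam the 30-base exon was held by 74.2 ± 0.662%, the 36-base exon by 79.5 ± 0.316%, a 12-base exon by 32.7 ± 1.56% and a 153-base exon by 30.002 ± 0.072%. These shares differed by under 3 percentage points between the quantifications. For the Nrcam 18-base exon, however, the transcripts behind the share changed. Nrcam-206 held 13.4% of the TPM of the gene in the first quantification and 0 in the second, and Nrcam-204 held 8.93% and 19.9%. In all, 5 of the 10 genes had coding exons of at most 400 bases in intermediate use: Ank3 had 11, Nfasc 7, Nrcam 5, Ank2 4 and Sptan1 1. The remaining genes had none. These exons are not all separate choices. The exons of the Nfasc 3-exon block share their transcripts, and Ank3 exons of 54, 84 and 87 bases, each at 28.0%, share Ank3-240. The share of all genes with such exons was not computed.

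Nrcam abundance was spread over many transcripts, with 8 at or above 5% of the TPM in either quantification and none above 16.1% in the first. The coding transcripts Nrcam-201 (1256 residues) and Nrcam-202 (1186 residues) stood at 34.8 and 33.2 TPM and at 23.9 and 22.4 TPM. Nrcam-215, labelled as subject to nonsense-mediated decay although it codes for 1134 residues, stood at 32.6 and 33.1. These 3 took 23.3%, 22.5% and 24.95% of the counts. Nrcam-203, a non-coding transcript at the 3′ end, took 12.4% of the counts. The fragments Nrcam-204, Nrcam-206, Nrcam-208 and Nrcam-214 took 8.93%, 13.4%, 3.23% and 11.0% of the TPM, but 0.619% to 3.21% of the counts. In the second quantification Nrcam-206 had 0 and Nrcam-204 and Nrcam-208 had 19.9% and 18.0% of the TPM, so its top transcript by TPM differed between the quantifications.

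Contactin-1 and the Caspr proteins sit at the borders of the node. Cntn1 (ENSMUSG00000055022.14, chromosome 15, 92051165 to 92341967, plus strand), a lipid-anchored adhesion molecule, stood at 216.5 TPM in replicate 1 and 210.1 in replicate 2. Cntnap1 (ENSMUSG00000017167.6, chromosome 11, 101170523 to 101190724, plus strand), its partner at the paranode, stood at 25.2 and 24.9. Cntnap2 (ENSMUSG00000039419.17, chromosome 6, 45059357 to 47304213, plus strand), the juxtaparanodal Caspr2, stood at 64.8 and 64.1. Cntn1 exceeded Cntnap1 by a ratio of 8.51 ± 0.111 (SD, n = 2), although the proteins act as a pair, and Cntnap2 exceeded Cntnap1 by 2.57 ± 0.0031. Cntn2, the contactin that pairs with Caspr2, stood at 24.4 and 29.0 TPM, so Cntnap2 exceeded it by 2.44 ± 0.315. In the second quantification these ratios were 8.43 ± 0.388, 2.18 ± 0.049 and 2.11 ± 0.152. All are ratios of whole genes. In the first quantification the full coding transcript Cntnap2-202 stood at 24.6 and 24.1 TPM, and Cntnap1-201 at 25.1 and 24.9. The excess of Cntnap2 over Cntnap1 there lay in its other transcripts, mostly short ones.

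The transcripts of Cntn1 share 1 coding sequence. Cntn1-201, Cntn1-202 and Cntn1-204 encode the same 1020 residues and together held 99.7 ± 0.020% of the TPM (n = 2). How this was divided depended on the quantification, which gave Cntn1-204 68.5 ± 0.877% in the first and 11.8 ± 8.11% in the second, Cntn1-202 27.6% and 44.1%, and Cntn1-201 3.58% and 43.2%. Cntnap1 was almost wholly Cntnap1-201 (1385 residues), at 25.1 and 24.9 TPM. The fragment Cntnap1-202 held 0.238% of the TPM in the first quantification and 8.13% in the second.

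Cntnap2 is the longest of the 10 genes, with a span of 2245 kb. Its full coding transcript, Cntnap2-202 (9827 bases, 1332 residues), stood at 24.6 and 24.1 TPM. It held 37.7 ± 0.319% of the TPM and 86.1 ± 0.512% of the counts of the gene. Cntnap2-206, an incomplete model of 674 bases at the 5′ end, stood at 21.3 and 20.6 TPM, which was 32.5 ± 0.533% of the TPM but 4.38 ± 0.062% of the counts. Cntnap2-201 (108 residues, at the 3′ end) and the non-coding Cntnap2-204 held 14.2% and 10.0% of the TPM. Over 12024 protein-coding genes with several transcripts, the median share in transcripts under 1500 bases was 20.6% of the TPM and 4.13% of the counts, and in Cntnap2 it was 45.8% and 5.79%. By TPM, 4 of the 10 genes lay above that median, which were Cntnap2, Nrcam, Sptan1 and Ank3.

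Some long introns of these genes contain separate records, annotated as TEC (loci that await experimental evidence) on the same strand. In Cntnap2 the 22 such records outside its exons differed with distance from the start of the gene. The 12 in the first 500 kb stood at 0.525 to 2.56 TPM, with a median of 1.76, and the 10 farther along stood at 0.050 to 0.835, with a median of 0.203. Each of these records had 2 to 158 expected counts in a library. Spearman's rho between distance and TPM was -0.85 in replicate 1, -0.81 in replicate 2 and -0.77 in the second quantification. It is given without a p, since the records share libraries and lie in 1 gene. In Ank2 the 12 such records stood at 1.045 to 6.385 TPM, with a median of 2.10 and no such decline. There rho was 0.59 in replicate 1, 0.69 in replicate 2 and 0.46 in the second quantification. The Ank2 records reach only 532 kb from the start of the gene, and those of Cntnap2 reach 1728 kb. The rho values of the 2 genes therefore cover unlike distances. Records on the opposite strand inside or across the 10 genes had a mean of 3.57 TPM or less. The highest was Plekhh3, which overlaps Cntnap1, at 2.75 and 4.39 TPM. The sources used here do not give the strand setting of the counting, so reads of overlapping genes may not be separable.

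**Figure D4:**
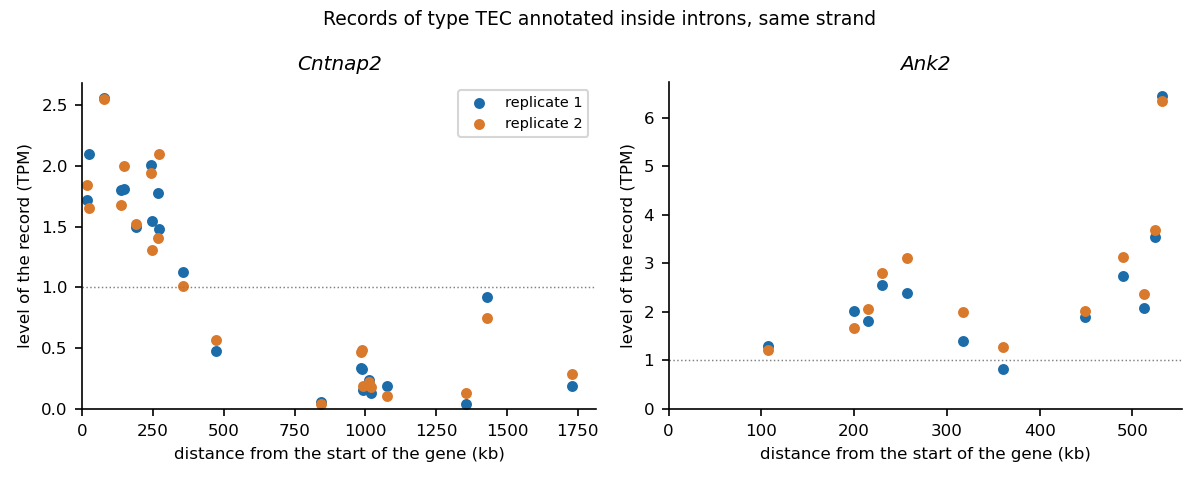
TPM of the records annotated as TEC inside introns of Cntnap2 and Ank2, against their distance in kb from the start of the gene, one point per record and library. In Cntnap2 the records of the first 500 kb reach 2.56 TPM and the later ones stay under 1, while in Ank2 the highest record, at 6.385 TPM, lies beyond 500 kb.

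Ordered by mean TPM, the 10 genes ran Ank2, Sptan1, Sptbn1, Ank3, Cntn1, Nrcam, Nfasc, Cntnap2, Sptbn4 and Cntnap1. The ranges of the 2 libraries overlapped for 3 pairs of neighbours, which are Ank2 and Sptan1, Cntn1 and Nrcam, and Nfasc and Cntnap2. Ank2 was above Sptan1 in both libraries in each quantification. Cntn1 was above Nrcam in 1 library in the first quantification and in neither in the second. Nfasc was above Cntnap2 in 1 library in the first and in both in the second. The other neighbours kept their order in each library and quantification.

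The libraries differed little in these genes. None of the 10 genes differed between them by 25% or more of the lower value, against 7.35% of the 12835 genes whose expected counts averaged at least 100. Among the 4730 of these that are protein-coding and lie in the level range of the 10 genes, the share was 1.21%, so a count of 0 of 10 is near the background of abundant genes. The log2 ratio of replicate 2 over replicate 1, with 0.1 TPM added, was positive in 6 genes and negative in 4. Its median was 0.04 over the 10 genes and 0.04 over all genes past the filter. The largest value was 0.13, for Sptbn4, which reached 0.28 in the second quantification, and the lowest was -0.04, for Cntn1. Counting error alone, as 95% Clopper-Pearson intervals on the ratio of depth-scaled counts, left out a ratio of 1 for 6 of the 10 genes. The matching share over all genes was not computed, so the 6 of 10 are not read as a trait of these genes. Counts over all genes also differed between the libraries beyond sampling noise. These intervals do not cover differences between samples.

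**Figure D5:**
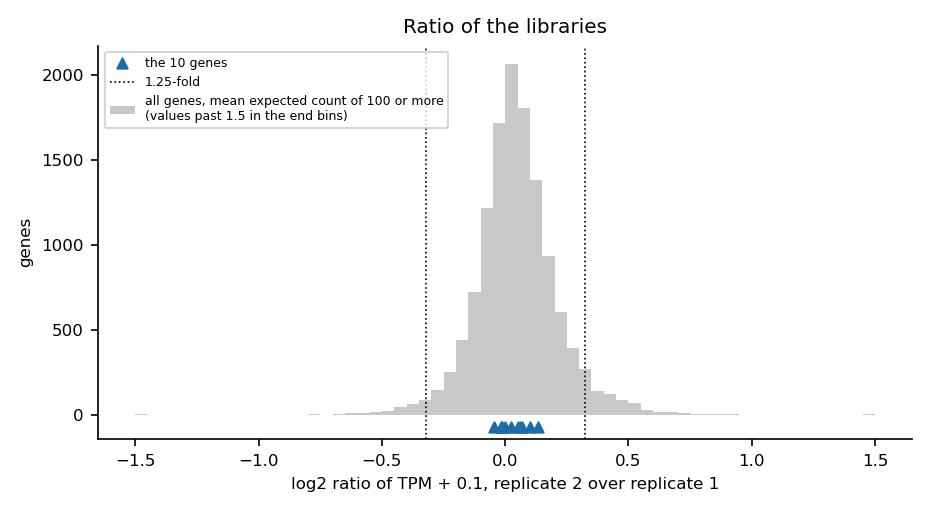
Number of genes by the log2 ratio of TPM plus 0.1, replicate 2 over replicate 1, for the 12835 genes whose expected counts averaged at least 100; triangles mark the 10 genes and dotted lines a difference of 25%. All 10 triangles lie between the dotted lines.

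The channels that these scaffolds hold were mostly well above detection. All 11 genes for sodium channel subunits and their FGF partners were detected, with medians of 70.7 and 70.6 TPM. The highest were Scn2a, the early sodium channel of initial segments, at 160.3 ± 5.72 (n = 2), and the FGF genes Fgf12 and Fgf13, at 125.7 ± 10.1 and 123.6 ± 6.87. Scn8a, the channel of mature nodes, stood at 77.9 ± 1.94. The lowest was the subunit gene Scn4b at 5.55 and 2.58 TPM, the only 1 of the 11 that differed by 25% or more. In the list of striatal neurons, 8 of 8 genes were also lower in replicate 2. Their log2 ratios had a median of -0.50 and their levels summed to 202.5 and 138.6 TPM, and their part in the Scn4b difference was not tested. All 10 potassium channel genes were detected, with medians of 36.2 and 35.0 TPM, among them Kcnq3 at 72.3 ± 1.18 and Kcnab2 at 62.4 ± 0.028. Kcna1 and Kcna2, the channels that Caspr2 gathers, stood at 18.2 ± 0.792 and 27.0 ± 0.269.

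All 14 genes for the cytoskeleton and regulators of the initial segment were detected, with medians of 85.1 and 83.7 TPM. They were led by the tubulin gene Tubb3 at 617.8 ± 24.6, the linker gene Macf1 at 114.1 ± 0.976 and Map6 at 110.0 ± 2.92, and Trim46, which bundles the microtubules there, stood at 55.9 ± 4.83. All 9 adaptor genes of the paranode and juxtaparanode were detected, with medians of 72.3 and 75.8, led by Dlg2 at 196.6 ± 3.18, Adam22 at 96.2 ± 1.22 and Epb41l2 at 96.1 ± 11.9. Of 8 matrix genes 6 were detected, with medians of 38.1 and 33.5, led by Ncan at 185.1 ± 3.10, Bcan at 130.4 ± 4.03 and Tnr at 48.8 ± 4.72. Hapln2, a link protein of central nodes, and Gldn, which gathers neurofascin at peripheral nodes, stood at 0.185 ± 0.092 and 0.330 ± 0.057 TPM.

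Markers of the cells in the samples were read from fixed lists. All 12 genes of cortical neurons were detected, with medians of 107.4 and 106.7 TPM and the highest levels in Nrgn, Snap25 and Slc17a7. Of 12 genes of myelinating oligodendrocytes 10 were detected, with medians of 14.8 and 13.045 and with Mbp and Cnp among the highest, and the late genes Opalin and Ermn stood at 0.260 and 0.605 TPM. All 7 genes of oligodendrocyte precursors, led by Olig1, Pdgfra and Gpr17, and all 8 of astrocytes, led by Slc1a2, Glul and Aldoc, were detected. All 8 striatal genes were detected too, with Ppp1r1b and Penk among the highest. Of 8 genes of choroid plexus and ependyma, led by Ttr, Foxj1 and Folr1, the summed level was 11.8 TPM in replicate 1 and 318.3 in replicate 2, with Otx2 at 0.020 and 0.970. Among Schwann cell genes, Prx and Pmp2 were under 1 TPM, at 0.590 and 0.080, and Pmp22 and Egr2 stood at 10.7 and 2.30.

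The annotation of the transcripts bounds what the shares can show. The 10 genes have 144 annotated transcripts, of which 48 held 5% or more of the TPM of their gene in either quantification, and 33 are coding models with an unknown start or end. The quantifications named the same top transcript by TPM for 7 of the 10 genes, against 75.7% of 12024 protein-coding genes with several transcripts. The exceptions were Sptbn4, Nrcam and Cntn1, and by share of counts Cntn1 alone remained. Complete coding transcripts held over 90% of the counts in 7 of the 10 genes, and 80.7% in Ank2, 70.7% in Nrcam and 40.8% in Ank3, where the transcript with the whole giant exon is incomplete. The share of TPM in retained-intron models was above the median of the 12024 genes in 6 of the 10 genes, with Sptbn1 nearest to it at 4.90%. It was under the median in 4, with 0% in Sptbn4, Cntnap1 and Cntnap2 and 0.300% in Cntn1. Retained-intron models held 25.1% of the TPM of Ank2, 20.9% of that of Sptan1 and 15.7% of that of Nfasc, against a median of 4.29% over the 12024 genes. Of their counts they held 9.99%, 3.28% and 3.23%, against a median of 1.82%. Most of the Ank2 share was Ank2-216, at 20.5% of the TPM. Its sequence lies almost wholly in the last exon of Ank2-201, so that share is not a measure of intron retention.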

How the data were processed

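Total RNA-seq was measured in 2 libraries of 1 group. Each library has a gene table and a transcript table of expected counts and TPM from alignments, and a second transcript table of estimated counts and TPM, all as deposited, per the file headers. The deposited percent columns give each transcript's share of its gene. The deposited text names the build mm10 and annotation release M21; the sources used here do not give programs, versions or the strand setting. Reads of the parental alleles were not separated by the reference. Effective lengths in the first quantification are 99 bases under the transcript length, which raises the TPM of short transcripts, so shares of counts are given too. The deficit was not read for the second quantification, and it may be larger there. Ank2-213, of 458 bases, had 5.44% of the TPM with 0.333% of the counts in the first quantification. In the second it had 9.40% with 0.212%. Per the file headers, the posterior means of TPM come with bounds whose level is not stated.

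Gene levels are TPM from the gene tables, and the second quantification was summed by gene. Depth was 31254528 and 30218308 expected counts. Counts of the libraries differed beyond sampling noise (chi-square over degrees of freedom 5.06 over 18515 genes), so they are not the same library. Detection meant 1 TPM or more in both libraries. Ratios used log2(TPM + 0.1), which understates low genes, over genes whose expected counts averaged at least 100. With 1 group, no test was made. Clopper-Pearson intervals (95%) cover counting error only. Named genes were the 10 genes, transcripts with 5% or more of the TPM of their gene in either quantification, and, from 7 related lists and 7 cell type lists, the 3 highest genes, those under 1 TPM and those with a difference of 25% or more; further list genes were named for their role after their values were seen, and some genes that the rule names are not reported here. The genes and lists were chosen with earlier results of these data known. Classes by exon content, inclusion of exons and intronic records were added after seeing the data. The ratio formula was tried on simulated counts with counting noise only and with changes well above 25%. That simulation does not cover the wider spread between these libraries. Sequences come from GENCODE M21 transcripts. Software was Python 3.11.15, pandas 2.3.3, numpy 2.4.6, scipy 1.17.1, matplotlib 3.10.9, R 4.3.3, edgeR 4.0.16 and DESeq2 1.42.0, the last 2 for scaling factors only.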

Additional observations from a re-analysis of the deposited data

How the results depend on the processing

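All 10 genes stayed detected, and none differed by 25% or more between the libraries, under every alternative run for these results. The median level of the 10 genes, 212.2 TPM, was 330.3 in the second quantification, 437.3 rescaled to nuclear protein-coding genes and 206.4 with posterior means, and 210.5 to 213.8 with a library left out. The median log2 ratio of the 10 genes, 0.04, was 0.0234 in the second quantification, 0.0113 with CPM, -0.0141 with edgeR's TMM factors, -0.0152 with DESeq2's size factors, 0.0319 scaled on ERCC spike-ins, 0.0394 with a pseudocount of 0 and 0.0393 with 1. The median of all genes, 0.0388, was 0.0353 in the second quantification, 0.0223 with CPM, -0.0030 with TMM, -0.0041 with the size factors and 0.0430 with ERCC scaling. ERCC scaling, like CPM, was applied to counts and not to TPM, and both medians were higher with it than with CPM. The genes higher in replicate 2 numbered 6 in the main analysis, 9 in the second quantification, 5 with TMM, 4 with DESeq2's size factors and 7 with ERCC scaling. The share of all genes differing by 25% or more was 18.9% without a filter on counts, 18.4% with a minimum of 10, 9.52% in the second quantification and 3.86% with TMM. The Ank2 share in transcripts of 12 kb or more, 31.1%, was 36.5% in the second quantification and 67.8% by counts (30.7 to 31.4% with a library left out). The Nfasc share of its top transcript, 55.4%, was 46.0% and 80.2% (53.5 to 57.2%). The Ank3 share in long transcripts, 0%, was 42.1% with a limit of 8 kb, because no annotated transcript reaches 12 kb. The cause of the other differences was not tested. No paired analysis was possible because the libraries form 1 group. One library for each animal number limits the precision of every SD to n = 2.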
